A study of Mus musculus with 82 samples.

Results

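Chemokines and chemokine receptors were followed through 8 tables of gene counts from mouse sciatic nerve. The family was taken by symbol: names that begin with Ccl, Cxcl, Ccr, Cxcr or Xcl and a number, together with Xcr1, Cx3cl1, Cx3cr1, Ackr1 to Ackr4, Pf4 and Ppbp, leaving out pseudogene names. It held 63 genes of the 78308 symbols found in any table. All 63 stood in 6 of the tables, 61 in the table with Egr2Cre Mitf and 45 in the table with Ndrg1. In 17 comparisons within the tables, 50 members had enough counts to be tested at least once and 41 passed a test at least once, while 13 (Ccl1, Ccl20, Ccl26, Ccl27b, Ccr1l1, Ccr3, Ccr4, Ccr6, Ccr8, Cxcl15, Cxcl17, Cxcr1 and Cxcr5) were never tested.

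Chemokines are small secreted proteins that bind G protein-coupled receptors on leukocytes and steer the cells up a gradient. CXC chemokines such as Cxcl1 and Cxcl2 act through Cxcr2 and are known for drawing neutrophils, CC chemokines such as Ccl2 act through Ccr2 and draw blood monocytes, and the atypical receptors Ackr1 to Ackr4 bind chemokines without the usual signal and take them up or carry them. In a damaged nerve, Schwann cells, fibroblasts and resident macrophages are known sources of chemokines, and incoming neutrophils and macrophages clear the debris of axons and myelin.

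The 82 libraries fell into 22 groups. Fig4 -/- and Fig4 +/+ nerves, which lack or carry a phosphoinositide phosphatase of the endosome and lysosome, were taken at postnatal day 12 (P12) in one table and at P4 in another, with 3 libraries a group. A table at P21 held 5 DhhCre and 5 Mitf libraries, and a table at P12 held 3 Egr2Cre and 3 Mitf libraries, where the labels join Cre, a DNA recombinase, to Dhh or Egr2, a gene of Schwann cells or their precursors that usually drives it. The injury table held 4 uninjured nerves and 4 nerves 3 days post injury, all labelled Mitf. The time course had 3 libraries at each of 3, 7 and 14 days post injury from nerves labelled wild type, and as many from nerves labelled Mutant. Without an age or an injury in the labels, 1 table held 3 Egr2Cre Mitf and 3 Mitf libraries, and the last contained control and Mitf groups of 6 libraries and Ndrg1 and Mitf-Ndrg1 groups of 5. Mitf encodes a transcription factor. Loss of Ndrg1, which myelinating Schwann cells express strongly, is known to cause demyelination of peripheral nerve. It was not stated in the labels which of Mitf, DhhCre, Egr2Cre or Mutant carried an altered Mitf gene, how the nerves were injured, or whether each library came from an animal of its own. Groups are therefore called by their labels, and p-values measure only the spread between these libraries, which may be technical.

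Totals ran from 15438783 to 34531474 estimated counts a library. Levels are given in CPM, counts scaled to 1 common library size after correction by TMM, in the order of replicate numbers. Changes are log2 differences, the first-named group minus the second, with the standard error (SE), and a gene passed the test at an adjusted p under 0.05 by edgeR over all genes of the comparison. Fig4 fell by 2.35 in Fig4 -/- nerves at P12, as their label says. Ndrg1 fell by 3.44 in Ndrg1 libraries and Mitf rose by 1.77 in Mitf against DhhCre libraries, where the labels give no direction. Summed markers of Schwann cells ran from 153533 to 183607 CPM in control libraries. Summed markers of skeletal muscle passed 8000 CPM in 2 of 6 libraries at P4, 1 of 6 with Egr2Cre, 5 of 18 in the time course, 6 of 6 with Egr2Cre Mitf and 2 of 22 with Ndrg1, and the counts and changes in members that move without those libraries are given both ways.

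Most members lie on a few chromosomes: 14 on chromosome 9, 14 on chromosome 11 and 13 on chromosome 5 of mm10. The neutrophil ligands Cxcl1 and Cxcl2 and the interferon-inducible Cxcl10 lie on chromosome 5. The CC ligands from Ccl2 to Ccl8, taken by position and not by number, lie within chr11:82035571-82116799. Cxcl14, past the test in 7 of the 17 comparisons, lies apart on chromosome 13 (chr13:56288643-56296551, minus strand). Of 25 members past the test in at least 3 comparisons, 17 had a promoter in the RefSeq table of GRCm38.p6; those without one include Ccl2, Ccl4, Ccl5, Ccl7, Ccl11, Cxcl5 and Cxcl16. The 5 stretches printed here are the 150 bases 5′ of the start on the gene's own strand. Cxcl1 and Cxcl2 are members that fell from 3 to 7 days post injury. Cxcl10 is a member that rose in 3 tables, and Cxcl14 and Ccl8 are a pair that rose in Fig4 -/- nerves. Capitals mark a match to the kappaB consensus or to TGANTCA.
Cxcl1 (chr5:90891095-90891244, plus strand): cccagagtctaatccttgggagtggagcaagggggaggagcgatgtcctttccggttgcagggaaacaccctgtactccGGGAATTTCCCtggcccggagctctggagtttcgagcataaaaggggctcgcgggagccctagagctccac
Cxcl2 (chr5:90903749-90903898, plus strand): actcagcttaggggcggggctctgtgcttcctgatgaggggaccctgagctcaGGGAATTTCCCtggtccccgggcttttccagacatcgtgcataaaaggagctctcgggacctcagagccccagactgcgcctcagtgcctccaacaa
Cxcl10 (chr5:92348890-92349039, minus strand): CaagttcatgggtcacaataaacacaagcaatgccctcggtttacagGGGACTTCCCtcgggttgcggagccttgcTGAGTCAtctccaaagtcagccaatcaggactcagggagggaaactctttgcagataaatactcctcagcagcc
Cxcl14 (chr13:56296552-56296701, minus strand): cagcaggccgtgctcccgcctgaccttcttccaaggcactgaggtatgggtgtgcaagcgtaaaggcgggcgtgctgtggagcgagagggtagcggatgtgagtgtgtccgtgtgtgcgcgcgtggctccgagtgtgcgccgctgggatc
Ccl8 (chr11:82115035-82115184, plus strand): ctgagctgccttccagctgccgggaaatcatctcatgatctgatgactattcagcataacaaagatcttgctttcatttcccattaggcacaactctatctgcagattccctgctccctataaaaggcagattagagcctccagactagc
Letters known as kappaB, AP-1 and E-box sites were searched on both strands in the 250 bases before each start. The kappaB consensus, which was chosen with the sequences in view and after other forms of it had been searched, was found in 4 of the 17 promoters, in 9 of 48 family genes with a promoter and in 4.46% of 27025 genes. Its matches were in Cxcl1 at -71 and -70, in Cxcl2 at -97 and -96, in Cxcl10 at -159 and -103 and in Ccl9 at -35, and those of Cxcl1 and of Cxcl2 overlap each other. Of the match at -159 in Cxcl10, the printed stretch holds only the last base. Cxcl1 and Cxcl2 shared a run of 14 bases at their matches, gggaatttccctgg. TGANTCA, the AP-1 letters, was found in Cxcl10 at -74, Ccl9 at -53 and Ppbp at -204, and in 7.82% of all genes. CACGTG was found in 0 of the 17 and 6.86% of all genes, and CATGTG in 1 of the 17 (Cxcr6, at -88) and 13.8% of all genes. A match describes these letters and is not a bound site.

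In 4 groups without an injury in their labels the family was led by Ccl11, eotaxin, a ligand of the eosinophil receptor Ccr3; the labels of the control group give no injury state at all. Per kilobase of exon, the scale on which genes can be compared, Ccl11 stood at 193 ± 36.9 CPM in Fig4 +/+ nerves at P12 (SD, n = 3), 120.2 ± 17.5 in DhhCre nerves (SD, n = 5), 106 ± 27.5 in uninjured Mitf nerves (SD, n = 4) and 92.3 ± 10.4 in control nerves (SD, n = 6). Pf4, a CXC chemokine known from platelets and macrophages, came next in 3 of these 4 groups, at 22.6 ± 3.36, 34.2 ± 7.09 and 28 ± 2.79 CPM per kilobase (SD). In uninjured Mitf nerves the second place went to Ackr1, the receptor of venules and erythroid cells that carries chemokines across endothelium, at 41.7 ± 1.48 CPM per kilobase (SD, n = 4), above Pf4 at 28.2 ± 3.85. Ackr1 at 20.2 ± 2.98 and Cxcl12, which retains Cxcr4-bearing cells, at 18.9 ± 1.14 CPM per kilobase followed in control nerves (SD, n = 6) and lay within their spread of each other.

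The order was different in injured nerves. At 3 days, Ccl6 led the wild type nerves of the time course at 271 ± 41.8 CPM per kilobase (SD, n = 3), with Pf4 at 247 ± 38.7 within the spread of it and Cxcl14 below them at 145 ± 13. Ccl8 led at 7 days at 390.3 ± 41.4 and at 14 days at 448 ± 213 CPM per kilobase (SD, n = 3 each). In the injury table Cxcl14 at 96.7 ± 38.5 and Ccl11 at 91.3 ± 30.9 CPM per kilobase did not differ beyond their spread (SD, n = 4). Ndrg1 nerves, whose labels give no injury, kept Ccl11 at 120.2 ± 14.8 above Cxcl14 at 75.6 ± 10.9 CPM per kilobase (SD, n = 5).

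**Figure D1:**
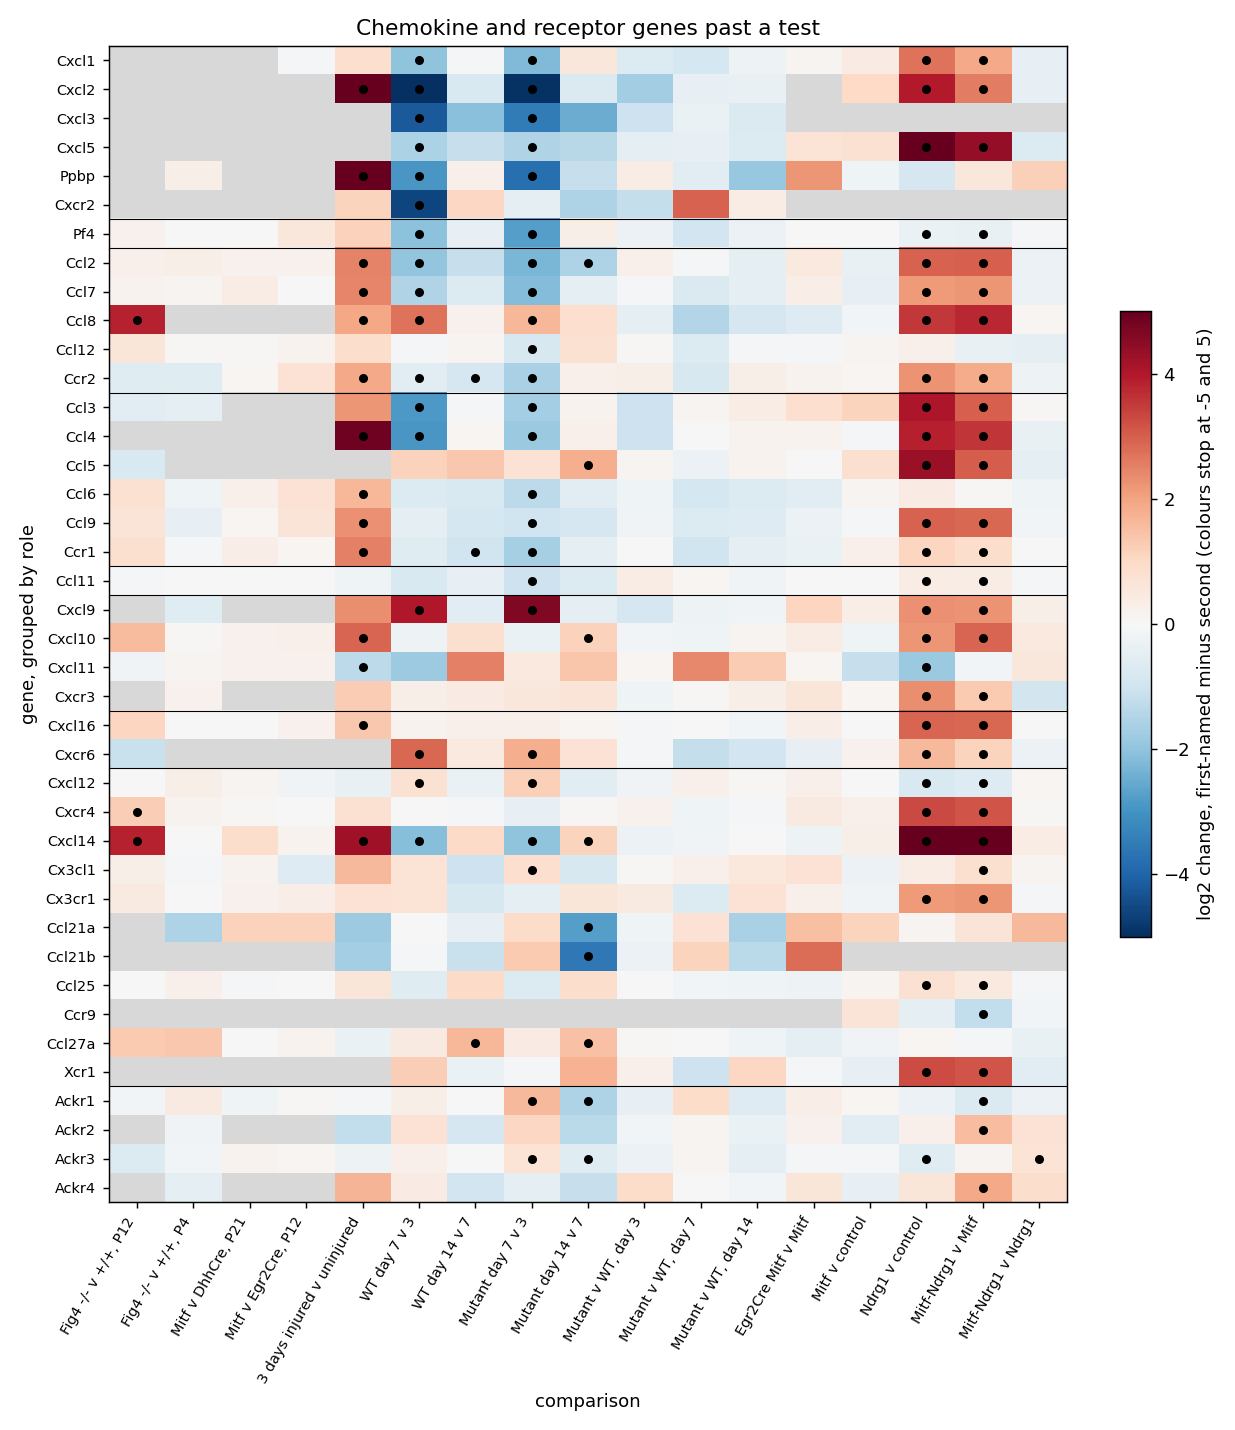
Log2 change of 40 members that passed the test in at least 1 of 17 comparisons (rows, grouped by role; columns, comparisons; colour stops at -5 and 5, dots mark adjusted p under 0.05, grey was not tested). Dots gather in the columns for injury, for day 7 against day 3, for Ndrg1 against control and for Mitf-Ndrg1 against Mitf.

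At 3 days after injury, nerves labelled Mitf held more mRNA of several members than uninjured nerves of the same label. Among these were the monocyte ligands Ccl2 and Ccl7 and their receptor Ccr2, and also Ccl8, Cxcl14 and several macrophage-associated ligands. Of 38 members tested, 13 were higher and 1 was lower, beside 22.1% of all genes called in either direction (11.7% higher, 10.4% lower). The median log2 change was 1.13 over the members tested and 0.03 over all genes tested. In whole nerve, fewer cells of a type and less RNA in each cell cannot be told apart, here and in every later comparison.

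Cxcl14, a chemokine of epithelia and stroma without an agreed receptor, stood at 244, 140.4, 226 and 95.9 CPM in injured and 12.4, 9.11, 10.6 and 5.38 CPM in uninjured nerves. Every injured library lay above every uninjured one, and the change was 4.23 (SE 0.38, adjusted p = 0.00108). The plot of Cxcl14 in all 82 libraries sets these nerves beside the other tables, which were normalised separately.

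**Figure D2:**
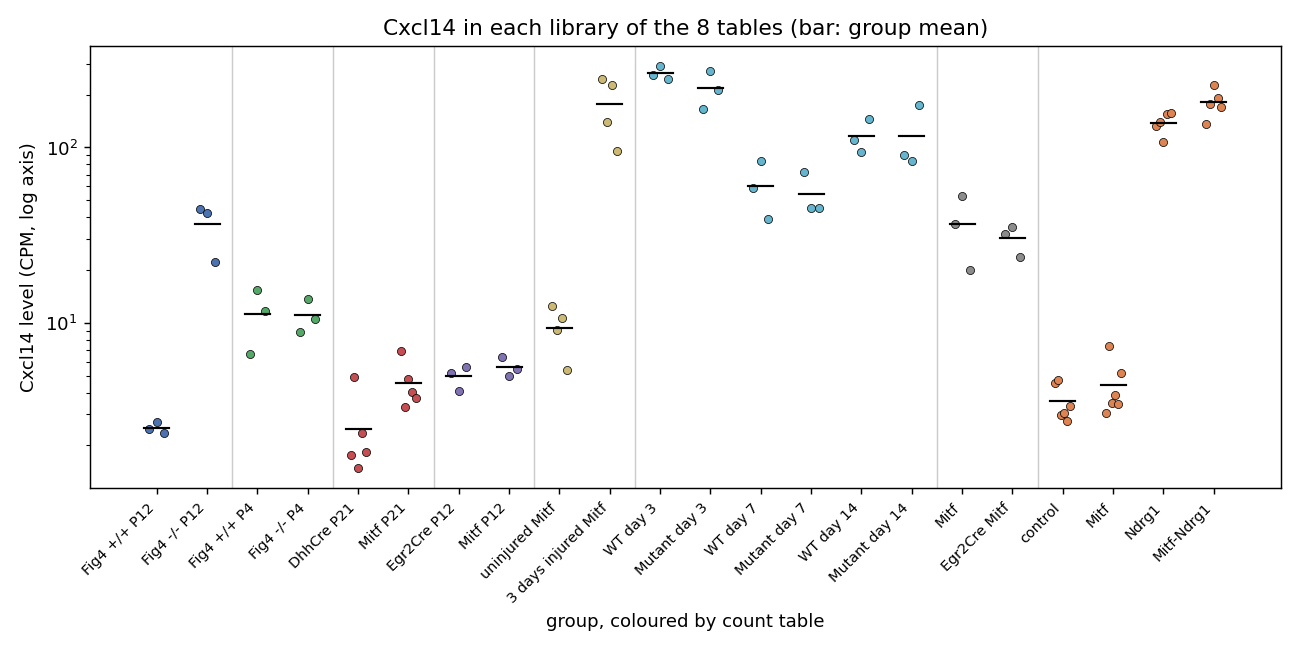
Cxcl14 level in CPM on a log axis for each library (points) of the 22 groups, with group means as bars and colours by count table. Ndrg1 libraries (107 to 157 CPM) stand above the controls of their table, nerves 3 days post injury stand above uninjured nerves of theirs, and Fig4 -/- nerves at P12 stand above Fig4 +/+ nerves.

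Among neutrophil ligands the levels were low, and Cxcl2 and Ppbp passed. Cxcl1 changed by 0.83 (adjusted p = 0.635) and the receptor Cxcr2 by 1.10 (adjusted p = 0.647), and neither passed. Cxcl3 and Cxcl5 did not have enough counts to be tested here. Cxcl2 stood at 0.996, 7.61, 3.72 and 8.13 CPM in injured and 0, 0.16, 0 and 0.461 CPM in uninjured nerves, without overlap, and rose by 4.98 (SE 1.21, adjusted p = 0.0184). Ppbp, the precursor of a neutrophil-activating peptide of platelets, was at 0 in all 4 uninjured libraries and at 0.498, 3.88, 0.877 and 0.542 CPM in injured ones, at least 56.1-fold higher in the mean when the uninjured group is set to a floor of 3 counts over the group (adjusted p = 0.0147). Injured replicate 2 held the highest Ppbp level by far, and without it the bound was 24.7-fold and the call was lost (adjusted p = 0.0562). Summed neutrophil markers were 7.67 to 26.5 CPM in injured against 1.57 to 4.29 CPM in uninjured nerves, with 3 of 9 markers tested. Summed platelet markers were 11.2 to 23.9 against 16.6 to 24.7 CPM. Of the 4 platelet markers only Itga2b, at 10.8 to 23.9 against 16.6 to 24.4 CPM, had enough counts to be tested. The part of both marker sets in these results was not tested.

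On the monocyte axis, Ccl2, Ccl7 and the receptor Ccr2 rose, as did Ccl8 of the same cluster. Ccl2, the main ligand of Ccr2, stood at 16.2, 42.1, 24.1 and 25.8 CPM in injured and 4.31, 2.92, 6.63 and 5.35 CPM in uninjured nerves and rose by 2.49 (SE 0.34, adjusted p = 0.00237). Ccr2, the receptor by which monocytes leave marrow and blood, stood at 25.5, 67.6, 29.3 and 52.5 against 13.3, 7.75, 13.9 and 11.4 CPM and rose by 1.91 (SE 0.33, adjusted p = 0.00563). In both genes the lowest injured library stood above the highest uninjured one. Ccl7, a further Ccr2 ligand, rose by 2.44 (SE 0.59, adjusted p = 0.0205). Ccl8 stood at 11.9, 16.2, 25 and 12.2 CPM against 3.47, 1.6, 5.43 and 6.64 CPM and rose by 1.92 (SE 0.43, adjusted p = 0.0127), again without overlap. Ccl12, a Ccr2 ligand of the same cluster, changed by 0.90 (adjusted p = 0.213) and did not pass.

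The macrophage-associated ligands rose in part, and Ccr1 rose with them. Ccr1, a receptor of Ccl3, Ccl5, Ccl6 and Ccl9 on myeloid cells, stood at 10.3, 26.3, 18.6 and 15.6 CPM against 3.53, 2.92, 2.88 and 2.95 CPM and rose by 2.52 (SE 0.30, adjusted p = 0.00182). Ccl9 stood at 72, 145, 91 and 97.8 CPM against 21, 13.2, 28.9 and 20.1 CPM and rose by 2.28 (SE 0.27, adjusted p = 0.00195). Groups did not overlap in either gene. Ccl6 rose by 1.64 (adjusted p = 0.0443), with 1 injured library at 201 CPM, and Ccl4, a ligand of myeloid cells and T cells listed at 0 in 3 uninjured libraries, rose by 4.85 (adjusted p = 0.0324). Ccl3 (log2 change 2.20 (adjusted p = 0.0684)) and Pf4 (1.14 (adjusted p = 0.055)) did not pass. Summed macrophage markers were 886 to 2349 CPM in injured and 456 to 1162 CPM in uninjured nerves, with 3 of 12 markers called higher, and their part in these changes was not tested.

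Of the interferon-inducible ligands of Cxcr3, Cxcl10 stood at 1.84, 5.05, 3.22 and 13.1 CPM against 0.583, 0.599, 1.07 and 0.8 CPM and rose by 2.92 (SE 0.64, adjusted p = 0.0117), without overlap. Cxcl11 fell by 1.30 (SE 0.39, adjusted p = 0.0381), from 4.08 to 5.35 CPM in uninjured to 1.35 to 2.76 CPM in injured nerves. Cxcl10 and Cxcl11 overlap Art3 on the opposite strand, and Cxcl11 is annotated in mm10 as a pseudogene in some strains. Other members, among them Ccl2, Ccl25, Cxcl16 and Cxcr6, also overlap a gene on the opposite strand. The sources used here do not say that counting used strand. Cxcl16, a membrane-bound ligand of Cxcr6, rose by 1.35 (adjusted p = 0.0376). Cxcl12 and Ackr3, its scavenging receptor, did not pass.

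**Figure D3:**
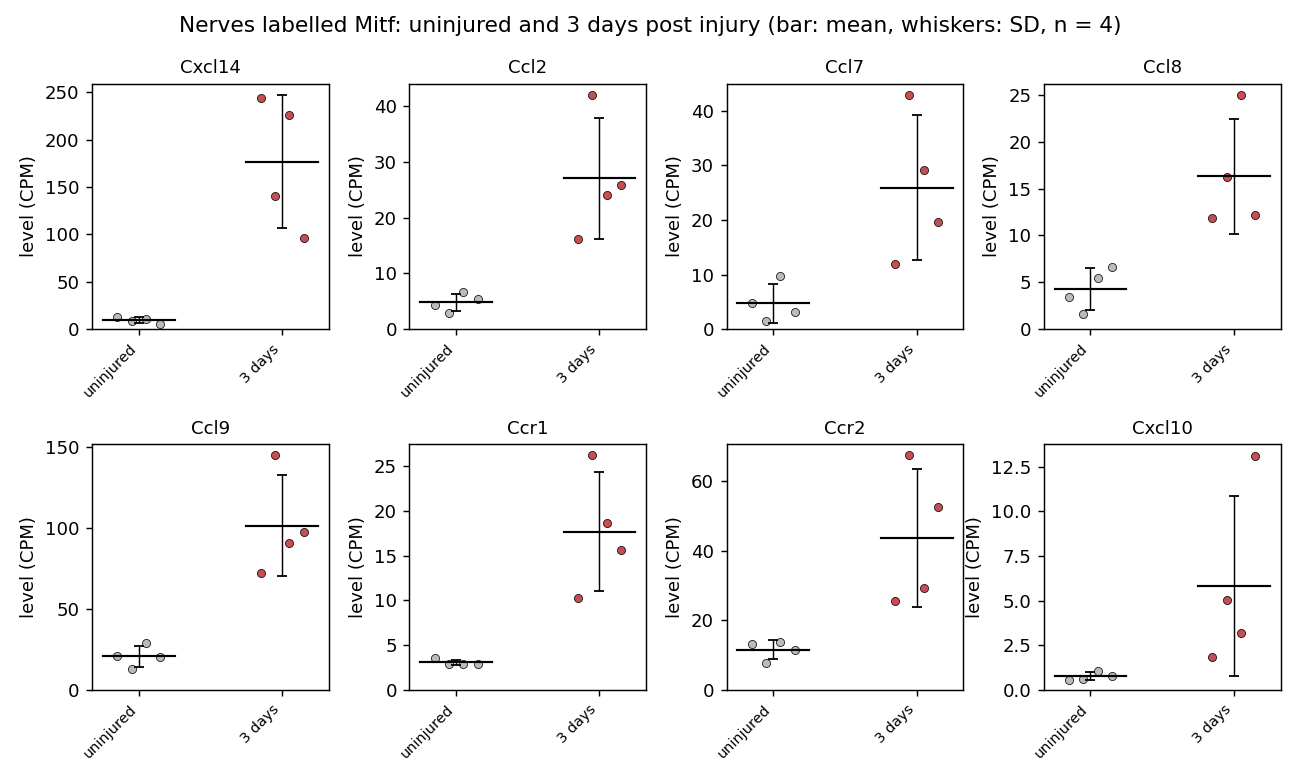
Levels in CPM of 8 members in uninjured and 3-day injured nerves labelled Mitf (points, libraries; bar, mean; whiskers, SD, n = 4 each). In each panel all injured libraries stand above all uninjured libraries, for example Cxcl14 at 95.9 CPM or more against 12.4 CPM or less.

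The calls of the injury table moved with single libraries: without injured replicate 2, 7 members passed, and without injured replicate 1, 18 did. Injured replicate 1 stood apart in some genes outside the family. Its S1pr1 was 469 CPM against 18 to 33.1 CPM in the other injured libraries, and its Prex1 263 against 30.6 to 45 CPM. Why the counts moved was not tested. The counts for the other genes of the pathway stand beside 3365 of 15245 genes called in this comparison. Of 20 tested genes of chemokine signal transduction, 7 rose and 1 fell (median log2 change 0.92). Vav1 at 2.12 and Rac2 at 2.06, both of the machinery that moves leukocytes, were among those that rose. Of 19 tested inducers of chemokine transcription 7 rose and none fell (median 0.52), with Cebpb at 2.25, Fos at 1.89 and Jun at 1.33. Of 13 other chemoattractant genes 3 rose and 2 fell (median 0.32), and of 9 proteases and glycan carriers 2 rose and 2 fell (median 0.15), with Mmp12, a macrophage elastase, at 6.57 and Adam10, a sheddase of Cxcl16 and Cx3cl1, at -1.16.

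Between 3 and 7 days post injury more members fell than rose in both genotypes of the time course. In wild type nerves 4 of 48 members tested rose and 13 fell, beside 39.1% of all genes called (19.4% higher, 19.6% lower), with a member median of -0.13 and 0.04 over all genes; the 17 members called are a smaller share than that of all genes. In Mutant nerves 7 of 48 rose and 18 fell, beside 33.4% of all genes called (16.2% higher, 17.2% lower), with a member median of -0.48 and 0.00 over all genes. Comparisons that meet at day 7 share those libraries, so they are given side by side only.

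The neutrophil ligands Cxcl1, Cxcl2, Cxcl3 and Cxcl5 fell, and Cxcl2 fell almost to 0. Cxcl2 stood at 16.2, 44.1 and 12 CPM in wild type nerves at 3 days and 0.458, 0.345 and 0.131 CPM at 7 days, a change of -6.26 (SE 0.65, adjusted p = 5.33e-06). In Mutant nerves it stood at 10.7, 6.91 and 4.54 and then 0.331, 0.211 and 0.162 CPM, a change of -4.94 (SE 0.65, adjusted p = 6.86e-05). No day 3 library overlapped a day 7 library in either genotype. At 14 days it stood between 0 and 0.315 CPM in all 6 nerves. Cxcl3 fell by 4.20 (SE 0.84, adjusted p = 0.00126) in wild type and by 3.50 (SE 0.84, adjusted p = 0.00529) in Mutant nerves. Cxcl1 fell by 2.01 and Cxcl5 fell by 1.59 in wild type, with like values in Mutant nerves (-2.20 and -1.51), and all 4 changes passed. Cxcl5 still stood at 1.6, 1.48 and 4.26 CPM in wild type nerves at 7 days, against 4.88, 11.5 and 5.64 CPM at 3 days. Cxcr2, the shared receptor of these ligands, fell by 4.60 (SE 1.13, adjusted p = 0.00483) in wild type nerves, where its level was 0.821, 1.71 and 0.789 CPM at 3 days. In Mutant nerves Cxcr2 stood at 0.816, 0.366 and 0.297 CPM at 3 days and 0.0552, 0.95 and 0.0539 CPM at 7 days. Its change there was -0.45 (adjusted p = 0.717). Day 7 replicate 2 stood above every Mutant library of day 3, and the other day 7 libraries stood below all of them. For Cxcr2 the difference between genotypes in this step was 4.15 (adjusted p = 0.718) and did not pass. Summed neutrophil markers were 41.2 to 84.6 CPM at 3 days and 10.4 to 14.4 CPM at 7 days in wild type nerves, and 19.1 to 50.8 and 8.28 to 32.1 CPM in Mutant nerves; their part in these changes was not tested.

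Pf4 and Ppbp, neighbours on chromosome 5, fell with them. Pf4 stood at 208, 153 and 174 CPM in wild type nerves at 3 days and 49.6, 43.8 and 33.6 CPM at 7 days and fell by 2.07 (SE 0.39, adjusted p = 0.000826), and in Mutant nerves it fell by 2.76 (SE 0.40, adjusted p = 0.000155). Ppbp fell by 2.89 in wild type nerves and fell by 3.78 in Mutant nerves, and both changes passed. Platelet markers were low at every time, between 4.92 and 10.1 CPM in sum.

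Ccl2 and Ccl7 parted ways with Ccl8. Ccl2 stood at 105, 112 and 96 CPM in wild type nerves at 3 days and 16.7, 17.3 and 46.1 CPM at 7 days and fell by 1.96 (SE 0.43, adjusted p = 0.00239). In Mutant nerves Ccl2 stood at 123, 138 and 109.5 and 10.6, 41.5 and 23.8 CPM and fell by 2.30 (SE 0.44, adjusted p = 0.00109). Ccl7 fell by 1.50 (SE 0.32, adjusted p = 0.00187) in wild type nerves and fell by 2.17 (SE 0.33, adjusted p = 0.000187) in Mutant nerves. Ccl8, its close neighbour on chromosome 11, went the other way. It stood at 36.1, 23.3 and 32.7 CPM at 3 days and 178, 201 and 220.1 CPM at 7 days in wild type nerves, a rise of 2.71 (SE 0.41, adjusted p = 0.000138). In Mutant nerves it stood at 24.1, 24.1 and 20.2 and 56, 101 and 61.3 CPM, a rise of 1.67 (SE 0.40, adjusted p = 0.00481). Both rises were free of overlap. Ccr2 stood at 132, 107 and 105 CPM at 3 days and 73.2, 95.8 and 68.3 CPM at 7 days in wild type nerves and fell by 0.53 (SE 0.15, adjusted p = 0.0124). In Mutant nerves it stood at 149, 125 and 148 and 45, 49.3 and 44 CPM and fell by 1.61 (SE 0.16, adjusted p = 4.73e-06), without overlap between the days in either genotype.

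**Figure D4:**
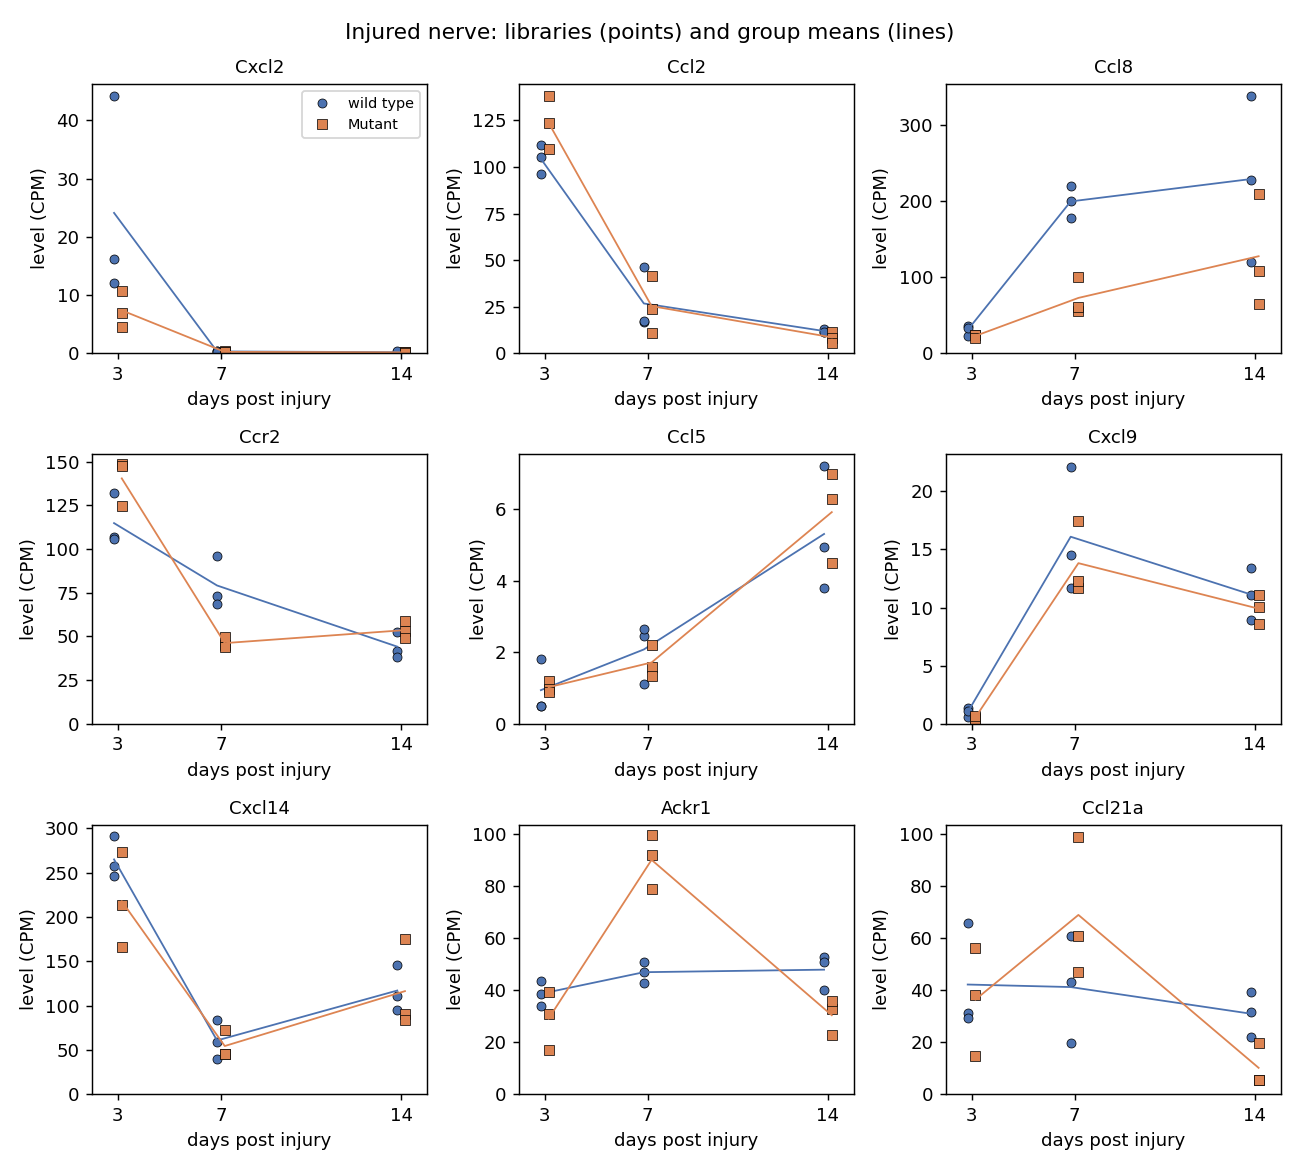
Levels in CPM of 9 members at 3, 7 and 14 days post injury in wild type (circles) and Mutant (squares) nerves, 3 libraries a group, with lines through the group means and the genotypes set slightly apart on the axis. Cxcl2, Ccl2 and Cxcl14 are high at 3 days, Ccl8 and Cxcl9 are higher at 7 days, and Ackr1 in Mutant nerves peaks at 7 days (78.7 to 99.4 CPM).

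Ccl3 and Ccl4 fell as well. Ccl3 fell by 2.88 (SE 0.46, adjusted p = 0.0002) and Ccl4 fell by 2.89 (SE 0.44, adjusted p = 0.000152) in wild type nerves, and in Mutant nerves their changes were -1.72 and -1.84, both past the test. Ccr1 stood at 51.6, 45 and 53.3 CPM at 3 days and 28.6, 39.5 and 28.8 CPM at 7 days in wild type nerves (-0.62 (adjusted p = 0.0732)). In Mutant nerves Ccr1 stood at 54.3, 50.4 and 49.8 and 12.8, 22.6 and 14.2 CPM and fell by 1.64 (SE 0.27, adjusted p = 0.000359). Ccl6, Ccl9, Ccl11 and Ccl12 passed in Mutant nerves, with log2 changes of -1.32, -0.99, -1.05 and -0.79. That these passed in 1 genotype does not show that the genotypes differ, and no member passed the test of that difference, where the smallest adjusted p was 0.341, for Ccr2. Summed macrophage markers were 3803 to 4717 CPM at 3 days and 3803 to 4185 CPM at 7 days in wild type and 3202 to 6917 and 1757 to 4055 CPM in Mutant nerves; their part was not tested.

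Cxcl9 and Cxcr6 were the late risers of this interval. Cxcl9, an interferon-gamma-inducible ligand of Cxcr3, stood at 1.32, 0.567 and 1.11 CPM at 3 days and 11.7, 22.1 and 14.5 CPM at 7 days in wild type nerves and rose by 4.02 (SE 0.32, adjusted p = 5.71e-07). In Mutant nerves it stood at 0.528, 0.447 and 0.679 and 17.4, 11.7 and 12.3 CPM and rose by 4.62 (SE 0.34, adjusted p = 6.33e-07), the smallest adjusted p of any member in both genotypes. Cxcr6, the receptor of Cxcl16 on T and NKT cells, rose by 2.87 (adjusted p = 0.000203) in wild type and 1.80 (adjusted p = 0.00812) in Mutant nerves, from 0.243 to 0.365 to a range of 1.18 to 2.89 CPM in wild type. Cxcl10 and Cxcr3 did not pass in this interval. Summed T and NK cell markers were 1.5 to 2.14 CPM at 3 days, 4.45 to 8.95 at 7 days and 10.5 to 13.7 at 14 days in wild type nerves, and their part in these changes was not tested.

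Of the homeostatic ligands, Cxcl12 rose and Cxcl14 fell. Cxcl12 stood at 119, 88.7 and 108 CPM at 3 days and 179, 204 and 149.9 CPM at 7 days in wild type nerves and rose by 0.76 (adjusted p = 0.0061). In Mutant nerves it stood at 81.6, 97.6 and 101 and 228, 182 and 230.1 CPM and rose by 1.18 (adjusted p = 0.000371). Its receptor Cxcr4 did not pass in either genotype. Cxcl14 stood at 257, 291 and 246 CPM at 3 days and 58.9, 83.8 and 39.3 CPM at 7 days in wild type nerves and fell by 2.12 (SE 0.32, adjusted p = 0.000144), and in Mutant nerves, from 166, 273 and 214 to 72.4, 45.2 and 45.4 CPM, it fell by 2.01 (SE 0.32, adjusted p = 0.000297). No library at 7 days reached the lowest library at 3 days of its genotype. Summed fibroblast markers went from 1379.5 to 1984 CPM at 3 days to a range of 4378 to 5232 CPM at 7 days in wild type nerves and from 2150.3 to 2384 to a range of 4277 to 5309 CPM in Mutant nerves, with 5 of 6 called higher in each (medians 1.55 and 1.07). Of 6 endothelial markers 1 was called higher in wild type and 6 in Mutant nerves. The part of these markers was not tested.

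The counts for the other pathway genes stand beside 6191 of 15852 genes called in wild type nerves and 5299 of 15852 in Mutant nerves. Of 20 signal transduction genes, 1 rose and 7 fell in wild type nerves (median -0.36), and 1 rose and 9 fell in Mutant nerves (median -0.47). Of 21 inducers 5 rose and 10 fell in wild type nerves (median -0.30), with Cebpb at -2.09, Fos at -1.54 and Il1b, the cytokine interleukin 1 beta, at -3.22; in Mutant nerves 2 rose and 5 fell (median -0.01). Of 15 other chemoattractant genes 3 rose and 8 fell in wild type and 2 rose and 8 fell in Mutant nerves (medians -0.78 and -0.73). Of 10 proteases and carriers 3 rose and 4 fell in wild type and 2 rose and 3 fell in Mutant nerves, with Dpp4, which trims chemokines, at 1.33 in wild type.

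Between 7 and 14 days fewer members passed. In wild type nerves 1 of 48 rose and 3 fell, beside 7.41% of all genes called (2.52% higher, 4.9% lower). In Mutant nerves 4 of 48 rose and 5 fell, beside 17.7% of all genes called (8.55% higher, 9.16% lower). Both counts are shares near those of all genes. The member medians were -0.10 and -0.02, against -0.01 and 0.05 over all genes. The wild type count was 2 without day 7 replicate 2 or 3, 1 without day 14 replicate 2 or 3, and 0 without the muscle-rich libraries. The Mutant count was 5 without day 7 replicate 2 or day 14 replicate 2, and 3 without day 7 replicate 3.

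In wild type nerves the myeloid receptors Ccr1 and Ccr2 fell from 7 to 14 days. Ccr2 stood at 52.8, 41.5 and 38 CPM at 14 days and fell by 0.84 (SE 0.15, adjusted p = 0.00859), and Ccr1, at 19, 19.2 and 11.2 CPM, fell by 0.98 (SE 0.27, adjusted p = 0.0416). For both receptors every library at 14 days stood below every library at 7 days. Without the muscle-rich libraries, which leave 1 day 14 library in each genotype, the changes were -0.68 for Ccr2 (adjusted p = 0.153) and -0.84 for Ccr1 (adjusted p = 0.208), and neither passed. Summed macrophage markers at 14 days were 2726 to 3197 CPM in wild type and 2309 to 2839 CPM in Mutant nerves, and their part was not tested. Ccl27a, a skin chemokine that overlaps Il11ra1 on the opposite strand, rose by 1.68 (adjusted p = 0.0498), and in Mutant nerves by 1.48 (adjusted p = 0.0469). Without those libraries the change of Ccl27a was 1.15 in wild type (adjusted p = 0.218) and -0.17 in Mutant nerves (adjusted p = 0.80).

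In Mutant nerves the atypical receptor Ackr1 rose and fell again. It stood at 17.1, 39.1 and 31 CPM at 3 days, 91.9, 78.7 and 99.4 CPM at 7 days and 32.6, 22.6 and 35.9 CPM at 14 days, a rise of 1.62 (SE 0.24, adjusted p = 0.000173) and then a change of -1.55 (SE 0.24, adjusted p = 0.00117). The 3 libraries at 7 days stood above all the others of the time course, wild type included, where Ackr1 ran from 33.8 to 43.3 CPM at 3 days, 42.9 to 50.8 at 7 days and 40.0 to 52.8 at 14 days. Ackr1 overlaps Cadm3 on the same strand. Ackr3 followed the same course in Mutant nerves, with changes of 0.69 (adjusted p = 0.00535) and -0.62 (adjusted p = 0.0204), and Cx3cl1, the tethered ligand of endothelium and neurons, rose by 0.85 (adjusted p = 0.0455) from 3 to 7 days. Summed endothelial markers in Mutant nerves were 367 to 586 CPM at 3 days, 872 to 1154 at 7 days and 346 to 856 at 14 days, against 513 to 599, 495 to 737 and 384 to 597 CPM in wild type nerves; their part was not tested. Without the muscle-rich libraries the changes from 7 to 14 days in Mutant nerves were -1.33 for Ackr1 (adjusted p = 0.0305) and -0.98 for Ackr3 (adjusted p = 0.00502), and both still passed. The difference between genotypes in the step from 7 to 14 days was -1.57 (adjusted p = 0.0626) for Ackr1 and did not pass.

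Ccl21a and Ccl21b, near-identical copies of a lymphatic ligand of Ccr7 that counting can split unevenly, fell together in Mutant nerves. Ccl21a stood at 60.8, 47 and 98.9 CPM at 7 days and 19.5, 5.56 and 5.34 CPM at 14 days and fell by 2.74 (SE 0.63, adjusted p = 0.0102), and Ccl21b fell by 3.58 (SE 0.60, adjusted p = 0.00186). The groups did not overlap. Once the muscle-rich libraries were left out, Ccl21b still passed (-4.13, adjusted p = 0.0305) and Ccl21a did not (-3.69, adjusted p = 0.0518). Summed lymphatic endothelial markers were 25.6 to 36.3 CPM at 7 days and 6 to 16.4 CPM at 14 days, and their part was not tested. Ccl5, a ligand made by T cells among others, stood at 2.21, 1.58 and 1.35 CPM at 7 days and 6.99, 6.28 and 4.48 CPM at 14 days and rose by 1.81 (SE 0.44, adjusted p = 0.0129). In wild type nerves Ccl5 stood at 2.46, 2.66 and 1.11 and 4.93, 7.2 and 3.78 CPM (1.34 (adjusted p = 0.0675)). Summed T and NK cell markers in Mutant nerves were 4.41 to 7.05 CPM at 7 days and 9.87 to 16.6 CPM at 14 days, with 4 of 7 called higher (median 1.68), and their part was not tested. Cxcl14 rose by 1.12 (adjusted p = 0.0249) in Mutant nerves, with 0.95 (adjusted p = 0.0706) in wild type nerves, and Cxcl10 rose by 1.16 (adjusted p = 0.0395) while Ccl2 fell by 1.54 (SE 0.44, adjusted p = 0.026). With the muscle-rich libraries left out, Cxcl14 (1.68, adjusted p = 0.00539) and Ccl2 (-2.13, adjusted p = 0.0398) still passed, and Ccl5 (1.39, adjusted p = 0.0933) and Cxcl10 (1.08, adjusted p = 0.190) did not.

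No member passed the edgeR test between Mutant and wild type nerves at 3, 7 or 14 days, where 0%, 0% and 8.29% of all genes were called (7.05% higher and 1.24% lower at 14 days). The unadjusted p was under 0.05 for 5, 15 and 11 of 48 members. DESeq2 called 0, 5 and 3 members. Those at 7 days included Ackr1, Ccl8, Ccr1 and Ccr2, and those at 14 days were Ackr1, Ackr3 and Ccl21a. Ccr2 was nearest at 7 days, with 45, 49.3 and 44 CPM in Mutant and 73.2, 95.8 and 68.3 CPM in wild type nerves, a difference of -0.80 (SE 0.15, adjusted p = 0.13). Ccl8 at 56, 101 and 61.3 against 178, 201 and 220.1 CPM gave -1.48 (SE 0.39, adjusted p = 0.192). In both genes the groups did not overlap, nor did those of Ackr1, at 0.92 (adjusted p = 0.185). Without the muscle-rich libraries 3 members passed at 7 days (Ccl8, Ccr1 and Ccr2) and 5 at 14 days (Ackr2, Ackr3, Ccl8, Ccl9 and Ccr1), the latter from 1 library a group; without Mutant replicate 1 at 14 days, 4 members passed there. The tests of whether the Mutant difference changed with time called 0 of 48 members from 3 to 7 days (0% of all genes; 7 unadjusted; DESeq2 1, Ccr2) and 0 from 7 to 14 days (0.0946% of all genes, 0.0694% higher and 0.0252% lower; 7 unadjusted; DESeq2 4, among them Ackr1, Ccl21b and Ccr2). For Ccr2 the second of these was 1.08 (SE 0.22, adjusted p = 0.0546). Without the muscle-rich libraries the count from 7 to 14 days was 3 (Ackr2, Ackr3 and Ccr2), and without Mutant day 14 replicate 1 or 2 it was 2 or 1.

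In nerves labelled Ndrg1 most members that passed the test were higher than in controls, while the share called, in either direction, was near that of all genes. Of 42 members tested against control, 24 were higher and 4 were lower, beside 60.5% of all genes called (30.8% higher, 29.7% lower), with a member median of 1.31 and 0.02 over all genes. Mitf-Ndrg1 against Mitf gave 27 higher and 4 lower of 42, beside 57.6% of all genes called (29.7% higher, 27.9% lower), with a median of 1.35 and 0.01 over all genes. Cxcr4, Cxcl14, Ccl2, Ccl8, Cxcl5, Cxcl16 and Cx3cr1 were among the higher members, and Cxcl12, Ackr3, Cxcl11 and Pf4 were lower in Ndrg1 libraries. Summed macrophage markers were 3234 to 4266 CPM in Ndrg1 against 458 to 617 CPM in control libraries, with 10 of 12 markers called higher and 1 lower. Summed neutrophil markers were 14.7 to 22 against 1.46 to 3.04 CPM, with 2 of 9 markers tested. Summed T and NK cell markers were 17.1 to 24.1 against 1.08 to 3.31 CPM, with 6 of 10 tested. Summed Schwann cell markers were 45861 to 59216 against 153533 to 183607 CPM. The part of these markers in the changes that follow was not tested.

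Cxcr4, the receptor of Cxcl12 on leukocytes, endothelium and progenitors, had a lowest value of 2.59, a median of 3.09 and a highest of 3.7 CPM in the 6 controls and stood at 34.1, 34.2, 30.7, 30.4 and 24.4 CPM in Ndrg1 libraries. The groups were far apart, and the change was 3.30 (SE 0.12, adjusted p = 2.51e-16), the smallest adjusted p of any member. In Mitf-Ndrg1 libraries it stood at 28.4, 39.1, 37.2, 30.2 and 27 CPM, 3.13 (SE 0.12, adjusted p = 3.96e-16) against Mitf. Cxcl14 had a lowest value of 2.77, a median of 3.2 and a highest of 4.75 CPM in controls and stood at 132, 140.1, 107, 154 and 157 CPM in Ndrg1 libraries, a rise of 5.28 (SE 0.21, adjusted p = 7.78e-15). In Mitf-Ndrg1 libraries it stood at 136, 177, 229, 192 and 170.0 CPM, 5.37 (SE 0.21, adjusted p = 5.45e-15) against Mitf, where it had a lowest value of 3.07, a median of 3.68 and a highest of 7.35 CPM. Neither gene overlapped between libraries with and without the Ndrg1 label.

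The neutrophil ligands were low in controls. Cxcl5 had a lowest value of 0, a median of 0.0418 and a highest of 0.18 CPM in controls and stood at 3.24, 3.27, 5.8, 2.93 and 2.25 CPM in Ndrg1 libraries, a rise of 5.80 (SE 0.58, adjusted p = 5.77e-09), and Ndrg1 replicate 3 was its highest library. Cxcl2 rose by 3.97 (adjusted p = 3.06e-06) and Cxcl1 by 2.71 (adjusted p = 7.77e-06). Ppbp had 0.0729 to 0.5 CPM in controls and 0 to 0.521 CPM in Ndrg1 libraries and did not pass, and Pf4 fell by 0.32 (SE 0.13, adjusted p = 0.0412), with overlapping groups (18.9 to 24.2 and 11.7 to 21.5 CPM). Thus in this table Pf4 and Ppbp did not rise with Cxcl1, Cxcl2 and Cxcl5, which lie beside them on chromosome 5.

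On the monocyte axis, Ccl2 had a lowest value of 5.11, a median of 6.08 and a highest of 10.8 CPM in controls and stood at 46.2, 47.7, 61, 45.2 and 53.1 CPM in Ndrg1 libraries, a rise of 2.93 (SE 0.18, adjusted p = 2.55e-12). Ccr2 had a lowest value of 6.15, a median of 8.39 and a highest of 11.7 CPM and stood at 40.4, 50.5, 48.3, 35.4 and 35 CPM, a rise of 2.26 (SE 0.17, adjusted p = 5.43e-11). Ccl8, of the cluster that holds Ccl2, had a lowest value of 0.168, a median of 0.321 and a highest of 0.685 CPM in controls. It stood at 3.61, 5.26, 3.06, 5.35 and 3.03 CPM in Ndrg1 libraries, a rise of 3.53 (SE 0.27, adjusted p = 7.67e-11). None of the 3 genes overlapped between the groups. Ccl7 rose by 2.11 (adjusted p = 1.2e-12), while Ccl12, in the same cluster, changed by 0.26 (adjusted p = 0.343) and did not pass.

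Of the macrophage-associated ligands, Ccl9 had a lowest value of 12.8, a median of 13.7 and a highest of 19.6 CPM in controls and stood at 84.4, 135, 128, 111 and 114 CPM in Ndrg1 libraries, a rise of 2.95 (SE 0.14, adjusted p = 1.29e-14). Ccl6, its neighbour on chromosome 11, changed by 0.41 (adjusted p = 0.108) and did not pass, at 8.2 to 12.4 CPM in controls and 8.76 to 18.6 CPM in Ndrg1 libraries. Ccl3, Ccl4 and Ccl5 rose from low levels by 4.03 (adjusted p = 8.42e-09), 3.88 (adjusted p = 4.55e-07) and 4.32 (adjusted p = 5.54e-06). Ccr1 rose by 1.08 (adjusted p = 0.000313). Ccl11 rose by 0.39 (adjusted p = 0.000841), a small step from the highest level per kilobase of the family. Cx3cr1, the fractalkine receptor of monocytes and resident macrophages, had a lowest value of 19, a median of 22.7 and a highest of 25.3 CPM in controls and stood at 92.6, 98.8, 104, 98.2 and 98.4 CPM in Ndrg1 libraries, a rise of 2.14 (SE 0.10, adjusted p = 6.67e-15) without overlap. The Cx3cr1 gene overlaps Csrnp1, Gorasp1 and Xirp1 on the same strand.

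Of the lymphocyte-directed members, Cxcl16 had a lowest value of 4.1, a median of 5.34 and a highest of 6.91 CPM in controls and stood at 41.5, 47.2, 31.5, 45 and 38.5 CPM in Ndrg1 libraries, a rise of 2.92 (SE 0.15, adjusted p = 3.83e-14), and its receptor Cxcr6 rose by 1.63 (adjusted p = 0.00443). Cxcl10 rose by 2.19 (adjusted p = 1.04e-08), Cxcl9 by 2.29 (adjusted p = 0.0175) and their receptor Cxcr3 by 2.31 (adjusted p = 0.000171), while Cxcl11 fell by 1.85 (SE 0.48, adjusted p = 0.00234). Xcr1, a receptor of cross-presenting dendritic cells, rose by 3.24 (adjusted p = 4.67e-05), and Ccl25, a gut and thymus ligand of Ccr9, by 0.75 (adjusted p = 0.00253). Cxcl9, Cxcr3, Cxcr6 and Xcr1 reached at most 1.25 CPM in any library of this table.

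Cxcl12 and Ackr3, which both bind into the Cxcr4 axis, fell while Cxcr4 rose. Cxcl12 had a lowest value of 139, a median of 157 and a highest of 164 CPM in controls and stood at 108, 80.3, 87.9, 86.4 and 86.2 CPM in Ndrg1 libraries, so it fell by 0.77 (SE 0.08, adjusted p = 9.69e-09). Ackr3 had a lowest value of 26.9, a median of 30.4 and a highest of 38.5 CPM and stood at 21.7, 21.8, 20.5, 20.5 and 18.6 CPM, so it fell by 0.60 (SE 0.10, adjusted p = 2.53e-05). Every Ndrg1 library lay below every control library in both genes. Summed endothelial markers were 260.2 to 327 CPM in control, 124 to 149 CPM in Ndrg1 and 161 to 200.4 CPM in Mitf-Ndrg1 libraries, and their part was not tested.

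Ackr3 was the only member of 42 that differed between Mitf-Ndrg1 and Ndrg1 libraries, beside 1.47% of all genes called (1.07% higher). It stood at 36.4, 37.2, 30.0, 32.5 and 27.9 CPM in Mitf-Ndrg1 libraries, 0.67 (SE 0.11, adjusted p = 0.00377) against Ndrg1, and no Mitf-Ndrg1 library reached down to an Ndrg1 library. The test of whether the Mitf label has a different effect with and without the Ndrg1 label gave 0.74 (SE 0.15, adjusted p = 0.0232), 1 of 42 members beside 0.39% of all genes called. That call was lost without Ndrg1 replicate 5 (adjusted p = 0.0699), and a second member passed in the direct comparison without Mitf-Ndrg1 replicate 1. In Mitf against control libraries edgeR called 0 of 42 members, beside 0.00629% of all genes, with 3 at an unadjusted p under 0.05 and 0 by DESeq2. Ccl7 was nearest, at -0.41 (adjusted p = 0.666).

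Mitf-Ndrg1 against Mitf, with libraries that the comparison of Ndrg1 with control does not use, gave further calls. Ackr4, a scavenger of Ccl19, Ccl21 and Ccl25, rose by 1.91 (adjusted p = 0.000811), Ackr2, a scavenger of inflammatory CC ligands, by 1.52 (adjusted p = 0.0105) and Cx3cl1 by 0.79 (adjusted p = 0.0052). Without the muscle-rich libraries Ackr2 (adjusted p = 0.0579), Ccr9 (0.0742), Cxcr3 (0.0531), Cxcr6 (0.0657) and Pf4 (0.0752) lost the call in this comparison by edgeR. Ackr1 changed by -0.70 (adjusted p = 8.01e-05), at 15.4 to 22.6 CPM in Mitf-Ndrg1 and 23.7 to 36.1 CPM in Mitf libraries, and Ccr9 by -1.24 (adjusted p = 0.0223) at levels of 0.171 to 0.494 CPM in Mitf-Ndrg1 and 0.525 to 1.25 CPM in Mitf libraries. Ccr9 overlaps genes on both strands, among them Lztfl1 and Slc6a20a on the opposite strand and Gm17200 on its own. Cxcl12 fell here too, by 0.66 on the log2 scale. These values do not show a difference from the comparison of Ndrg1 with control: apart from Ackr3, no member passed the test of that difference.

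**Figure D5:**
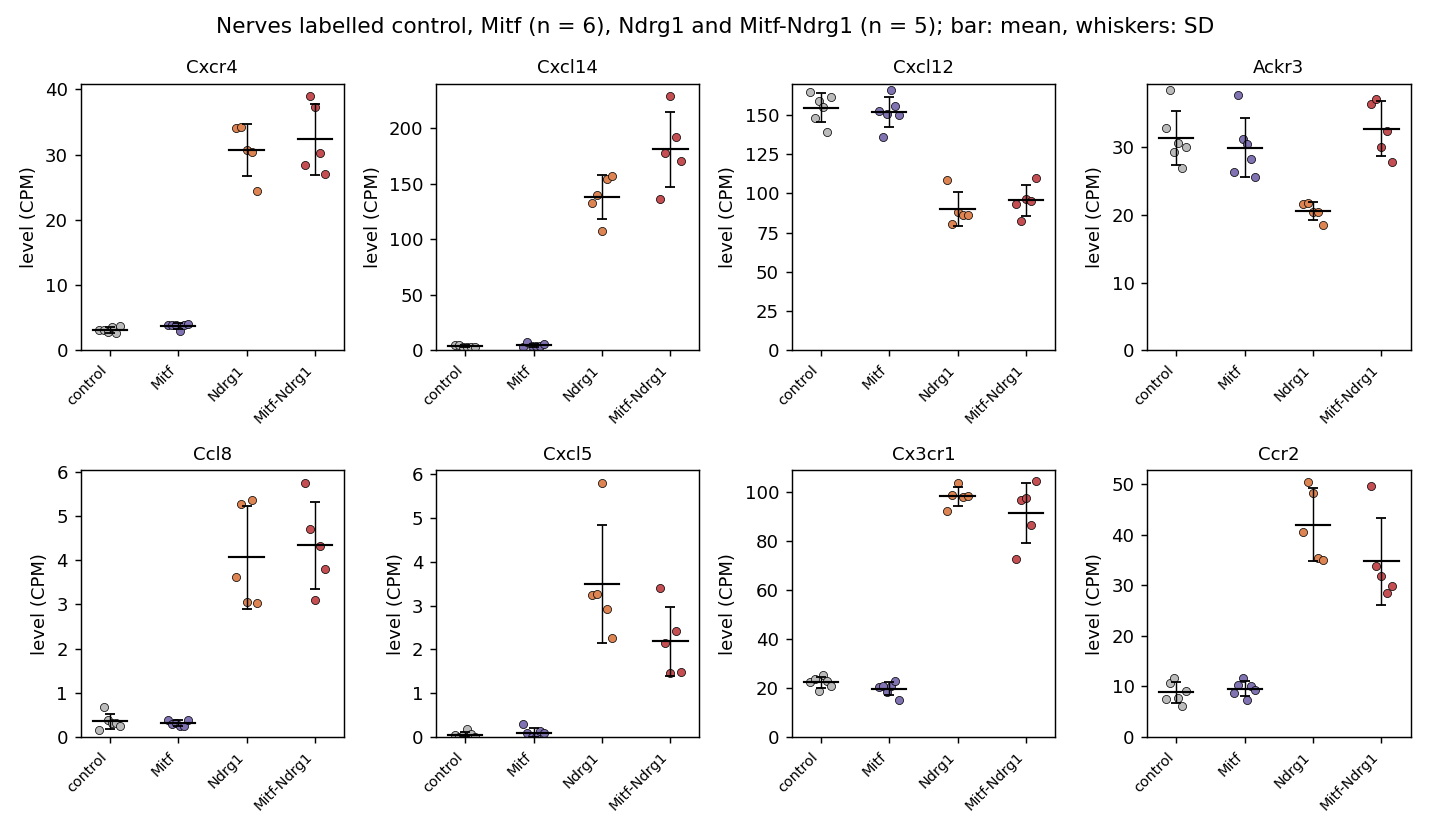
Levels in CPM of 8 members in control and Mitf (n = 6 each), Ndrg1 and Mitf-Ndrg1 (n = 5 each) nerves (points, libraries; bar, mean; whiskers, SD). Cxcr4, Cxcl14, Ccl8, Cxcl5, Cx3cr1 and Ccr2 are high and Cxcl12 is low in both groups with the Ndrg1 label, while Ackr3 is low in Ndrg1 nerves alone.

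The counts for the other genes of the pathway stand beside the 60.5% of all genes called in Ndrg1 against control. Of 20 signal transduction genes 13 were higher and 4 lower in Ndrg1 against control (median 1.15), with Vav1 at 2.67, Rgs16 at 2.55 and Pik3r5, a subunit of the PI3-kinase of chemokine receptors, at 3.14. Of 20 inducers 13 were higher and 3 lower (median 0.83), with Tlr2, a bacterial lipoprotein receptor, at 1.59 and Jun at 1.14. Of 13 other chemoattractant genes 10 were higher and 2 lower (median 0.57), with C3ar1, the receptor of complement C3a, at 2.41 and Il34 at -1.06. Of 10 proteases and carriers 5 were higher and 2 lower (median 0.28), with Mmp12 at 7.84 and Adam10 at -1.49.

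In Fig4 -/- nerves at P12, 3 of 28 members tested were higher than in Fig4 +/+ nerves and none was lower, beside 3.03% of all genes called (1.87% higher, 1.16% lower). The member median was 0.23 and that of all genes 0.00. Cxcl14 stood at 44.8, 42.3 and 22.3 CPM in Fig4 -/- and 2.47, 2.73 and 2.36 CPM in Fig4 +/+ nerves, a rise of 3.86 (SE 0.29, adjusted p = 3.16e-05). Ccl8 stood at 13.3, 11.2 and 5.33 and 0.54, 0.622 and 0.906 CPM, a rise of 3.85 (SE 0.45, adjusted p = 0.000733). Replicate 3 of Fig4 -/- was the lowest of its group in both genes and still far above the Fig4 +/+ nerves. Cxcr4 stood at 10.03, 11.7 and 11.4 and 3.37, 5.98 and 4.76 CPM, a rise of 1.24 (SE 0.29, adjusted p = 0.0418) that was lost when any 1 of the 6 libraries was left out.

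Ccl2 and Ccr2, which rose with Cxcl14 and Ccl8 after injury and in Ndrg1 nerves, did not pass in Fig4 -/- nerves, at 0.24 and -0.62. Ackr3 (-0.67 (adjusted p = 0.0743)), Cxcl16 (1.07 (adjusted p = 0.0808)) and Ccl24, a further eotaxin (-2.13 (adjusted p = 0.0846)), came near the threshold. Summed macrophage markers were 835 to 1140.4 CPM in Fig4 -/- against 492 to 594 CPM in Fig4 +/+ nerves, with 6 of 12 markers called higher, and their part was not tested. No signal transduction gene of 19 passed (median 0.37), and in the other lists C3ar1 at 0.88, Jun at 1.32 and Gpc1, a heparan sulfate carrier, at 2.08 rose and Adam10 fell by 0.62.

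At P4 no member of 31 passed between the same genotypes, beside 0.00672% of all genes called by edgeR, with 1 member at an unadjusted p under 0.05 and 0 by DESeq2. Cxcl14 stood at 8.91, 13.7 and 10.5 CPM in Fig4 -/- and 6.61, 15.4 and 11.7 CPM in Fig4 +/+ nerves, with overlapping groups. The difference between the Fig4 effects at P12 and P4 was 3.90 (SE 0.47, adjusted p = 0.00593) for Cxcl14, 1 of 36 members tested, beside 0.167% of all genes called (0.153% higher and 0.0145% lower). Without the muscle-rich P4 libraries it was 4.12 (adjusted p = 0.00155). For Ccl8, which stayed under the count minimum when the P4 table was tested by itself, the difference was 3.63 (adjusted p = 0.47) and did not pass. In the muscle-rich P4 libraries, replicate 3 of Fig4 -/- and replicate 1 of Fig4 +/+, Pf4 stood at 57.6 and 66.1 CPM, above the other 4 libraries of that age.

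Mitf against DhhCre libraries at P21 and Mitf against Egr2Cre libraries at P12 gave no call by edgeR among 24 and 27 members, beside 0.0143% and 0.0139% of all genes, with 3 members each at an unadjusted p under 0.05 and 0 each by DESeq2. Ccl11 led both tables per kilobase, at 123 ± 8.51 in Mitf and 120.2 ± 17.5 in DhhCre nerves (SD, n = 5 each) and 101 ± 5.16 and 101 ± 10.2 in Mitf and Egr2Cre nerves (SD, n = 3 each). Cxcl14, with the second smallest unadjusted p at P21, stood at 3.3 to 6.93 CPM in Mitf and 1.49 to 4.91 CPM in DhhCre nerves.

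In Egr2Cre Mitf against Mitf libraries 0 of 44 members passed by edgeR, beside 0% of all genes called, with 8 at an unadjusted p under 0.05. DESeq2 called Ccl21a and Ccl21b. Ccl21a stood at 9.65, 17 and 10.3 CPM in Egr2Cre Mitf and 5.63, 4.47 and 2.84 CPM in Mitf libraries, 1.52 (SE 0.32, adjusted p = 0.846) by edgeR and an adjusted p of 0.00759 by DESeq2. Ccl21b stood at 1.33, 3.37 and 1.46 and 0.47, 0.221 and 0.205 CPM, 2.78 (SE 0.53, adjusted p = 0.846). Neither copy overlapped between the groups. All 6 libraries of this table were rich in skeletal muscle markers (13916 to 20911 and 11481 to 53021 CPM). Cxcl14 at 32.2, 35.1 and 23.8 CPM in Egr2Cre Mitf and 36.6, 52.8 and 19.9 CPM in Mitf libraries overlapped between the groups.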

How the data were processed

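Per the labels' protocols, stranded mRNA libraries were made from quick-frozen sciatic nerve. Per the submitters' processing notes, the authors used kallisto with mm10, and they deposited its estimated counts by gene symbol. Which versions, annotation and strand setting were used is not given in the sources used here. The counts were rounded to whole numbers. Columns not used numbered 0. Totals ran from 15438783 to 34531474 a library. No 2 replicates held the same library (lowest chi-square per degree of freedom 9.61).

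Each table was tested by itself with edgeR 4.0.16 in R 4.3.3 (filterByExpr with a minimum count of 10, TMM, robust quasi-likelihood test, two-sided) and Benjamini-Hochberg adjustment over all genes of a comparison; the P4 and P12 Fig4 tables were also fitted together over shared symbols. In the time course, and in the table with Ndrg1, 1 estimate of the spread was shared by all groups. The SE is the absolute log2 change over the square root of F. CPM used TMM-scaled totals. Exon lengths and gene positions are those of GENCODE vM21 on mm10. The fit was tested on simulated data. Every member could be named: those past the test first, by smallest p, then those at 10 CPM or more; from the other lists up to 4 genes by smallest p. Values of 1 member are not reported here, though counts of members include it. The members and lists were chosen with earlier results of these data known. The fits were repeated with DESeq2 1.42.0, with RLE scaling, without the filter on low counts, with a block for replicate number, with the compared groups alone and without each library in turn; removing muscle-rich libraries was chosen after seeing the data. Same-numbered libraries deviated together in every pair of DhhCre with Mitf (r 0.119 to 0.302) and of Egr2Cre Mitf with Mitf (0.125 to 0.339), and the numbers were taken to pair them there. Every r was above 0 in some other comparisons too. Among these were uninjured with injured Mitf (0.0116 to 0.169) and control with Mitf-Ndrg1 (0.0346 to 0.227). Those were not taken as paired, and whether their libraries were paired is not settled by these values.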

Additional observations from a re-analysis of the deposited data

Results flagged for a closer look

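Within groups of 4 to 6 libraries, 1 library stood apart from the rest in 19 of 160 sets of values of members past a test. These lay in 17 genes and 14 libraries. For normally distributed values chance does so in about 1 of 20 sets. Some levels here lie near 0, as for Ccl4 and Ccl5, where that rate may not hold, so no excess is read from it. In injured Mitf nerves replicate 2 stood apart high for Ccl6 (201 CPM) and Ppbp (3.88 CPM). In uninjured Mitf nerves the high libraries were replicate 3 for Ccl4 (0.288 CPM), replicate 1 for Ccr1 (3.53 CPM) and replicate 4 for Cxcl16 (14.9 CPM). Among controls, replicate 6 was high for Ccl2 (10.8 CPM), replicate 2 for Ccl25 (3.46 CPM) and Pf4 (24.2 CPM), replicate 4 for Ccl5 (0.224 CPM) and replicate 1 for Cxcr3 (0.419 CPM). Among Mitf libraries of the table with Ndrg1, replicate 2, which was rich in muscle markers, was high for Ccr1 (5.06 CPM) and Cxcl9 (0.686 CPM), and replicate 4 was high for Cx3cl1 (5.99 CPM) and low for Cxcr4 (2.90 CPM). Among Ndrg1 libraries, replicate 3 was high for Ackr2 (0.716 CPM) and Cxcl5 (5.80 CPM), replicate 1 was high for Cxcl12 (108 CPM) and replicate 2 was low for Ccl25 (3.22 CPM). In Mitf-Ndrg1 nerves replicate 1 was high for Ccr2 (49.6 CPM).

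A pair of changes differed between settings of the same contrast by the edgeR test of the difference itself. The Fig4 effect on Cxcl14 was larger at P12 than at P4 by 3.90 on the log2 scale, higher in 3 of 3 Fig4 -/- libraries than in every Fig4 +/+ library at P12. The effect of the Mitf label on Ackr3 was larger with than without the Ndrg1 label by 0.74 on the log2 scale, with all 5 Mitf-Ndrg1 libraries above all 5 Ndrg1 libraries.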

How the results depend on the processing

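Counts of members past the test moved by over 1.5 times under these settings. For Fig4 at P12 (3), DESeq2 gave 6 and no low-count filter 9. For day 14 against 7 in wild type nerves (4), DESeq2 gave 12, no filter 2, the compared groups alone 1 and removal of muscle-rich libraries 0. In Mutant nerves (9) DESeq2 gave 17 and the compared groups alone 2. For Mutant against wild type (0 at each day), DESeq2 gave 5 and removal of muscle-rich libraries 3 at day 7, and 3 and 5 at day 14. For the change of that difference with time (0), DESeq2 gave 1 from 3 to 7 days and 4 from 7 to 14 days, where removal gave 3. For Egr2Cre Mitf against Mitf (0), DESeq2 gave 2. The cause was not tested. Ccl27a turned to -0.17 in Mutant nerves, day 14 against 7, without muscle-rich libraries.

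With 1 library left out, counts ranged from 2 to 2 for Fig4 at P12, 1 to 1 for its difference between ages, 7 to 18 for injury, 15 to 18 and 18 to 28 for day 7 against 3 in wild type and Mutant nerves, 1 to 6 and 3 to 13 for day 14 against 7, 0 to 4 for Mutant against wild type at day 14, 0 to 2 for its change from 7 to 14 days, 27 to 30 for Ndrg1 against control, 27 to 32 for Mitf-Ndrg1 against Mitf, 1 to 2 for Mitf-Ndrg1 against Ndrg1 and 0 to 1 for the interaction. They stayed at 0 in the other comparisons. Where a group was left with 1 library, it was assumed to vary like the others.

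With the replicate number as a block, counts were 2 for Fig4 at P12, 10 for injury (main 14), 19 and 24 for day 7 against 3 in wild type and Mutant nerves, 5 and 10 for day 14 against 7, 29 for Ndrg1 against control and 31 for Mitf-Ndrg1 against Mitf. The block changed no count by over 1.5 times, and both tables whose numbers pair the libraries kept 0 calls. Of single members past the test, 126 kept direction and call under the block and 8 lost the call, against 133 and 1 with RLE scaling, 133 and 1 with DESeq2, 123 and 11 with no filter, 91 and 13 with the compared groups alone, and 104 and 12 without muscle-rich libraries. That removal was not run for Egr2Cre Mitf, where every library was rich, and had nothing to remove in 3 tables. Genes near the count minimum, such as Cxcr3, Cxcl9 and Xcr1, are limited by depth.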
